A study of Homo sapiens with 12 samples.

Results

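HEK293 cells that lack the catalytic subunits of AMPK were compared with their wild type (WT) counterparts after both lines had been given cordycepin and then epidermal growth factor (EGF). The 4 libraries of this comparison, chosen by their labels, were 2 of AMPK knockout (AMPK KO) cells and 2 of WT cells, out of 12 libraries in the series. The question was which genes still differed between the lines when cordycepin was present. HEK293 is a human embryonic kidney line, and the AMPK KO derivative carries CRISPR-made disruptions of both PRKAA1 and PRKAA2, which encode the alternative catalytic α subunits. It was received from another laboratory as an established line, so any difference accumulated since the lines parted belongs to the line difference as much as the targeted genes do. All cells were serum starved for 24 h, received 25 µM cordycepin in DMSO, and were stimulated with EGF for the last 30 min of a treatment of 50 min in total. The EGF concentration was given as 15 with units that differed between sources. The other 8 libraries were AMPK KO and WT cells given DMSO and EGF (2 a line) or DMSO alone (2 a line), and served to estimate the spread and to look up the same genes in cells without cordycepin. All libraries carried replicate number 2 or 3, because the authors discarded replicate 1 of each condition. Nothing in the labels says that replicates were separate cultures, so p-values measure the spread between these libraries.

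AMPK is a kinase that is switched on when cellular ATP falls, and it slows anabolic pathways such as fatty acid, cholesterol and protein synthesis while favouring catabolic ones. EGF acts through its receptor and the ERK pathway to raise the transcription of immediate early genes, such as FOS, EGR1 and MYC, within minutes. Cordycepin (3′-deoxyadenosine) is a nucleoside that resembles adenosine. Cells phosphorylate it. It lacks the hydroxyl group at which an RNA or poly(A) chain is extended, and it has been studied both as an inhibitor of polyadenylation and as an activator of AMPK.

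The libraries of AMPK KO cells with cordycepin held 12.7 and 18 M reads (mega reads) on listed genes, and those of WT cells held 26.5 and 15.5 M. WT DMSO replicate 3, which entered the shared fit and the DMSO comparison, held 4.02 M reads and had 1170 listed genes without a read. Log2 values of the libraries did not group strictly by condition. The AMPK KO cordycepin replicates correlated with r = 0.961 and the WT ones with r = 0.962, while AMPK KO cordycepin replicate 3 correlated with WT EGF replicate 2 at r = 0.962 and WT cordycepin replicate 3 with AMPK KO DMSO replicate 3 at r = 0.967 (22067 genes each). Of the HEK293 background genes, VIM (49.1 to 76.3 RPKM), NEFL (12.4 to 33.7 RPKM) and INA (11.9 to 16 RPKM) were present in all 4 libraries, while PAX2, LHX1 and NEFM stayed under 1 RPKM. RPKM is the number of reads per kilobase of gene and per mega read of the library.

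The targeted genes were examined first. PRKAA1 (ENSG00000132356, minus strand of chromosome 5, 40759389 to 40798374 in GRCh38) had 7.03 and 8.5 RPKM in the AMPK KO libraries with cordycepin and 11.3 and 11.2 RPKM in the WT libraries. Both AMPK KO values lay below both WT values. The log2 fold change (AMPK KO over WT, called the log2 difference from here on) was -0.49 (SE 0.17) and did not pass adjustment over all genes (limma, adjusted p = 0.28). Without cordycepin the same gene was lower by more, at -1.12 (SE 0.17, adjusted p = 0.0236) with EGF and -1.26 (SE 0.17, adjusted p = 0.0228) with DMSO. The AMPK KO level was nearly the same in the 3 treatments (7.37 to 8.51 RPKM in the 4 libraries without cordycepin), whereas WT cells had 17.4 and 19 RPKM with EGF and 21.9 and 15.4 RPKM with DMSO. The difference between the line differences with cordycepin and EGF and with EGF alone was 0.63 (SE 0.24, adjusted p = 0.182). PRKAA2 (ENSG00000162409, plus strand of chromosome 1, 56645314 to 56715335) had 5.39 and 7.43 RPKM in AMPK KO and 6.78 and 7.3 RPKM in WT cells, groups that overlap, with a log2 difference of -0.12 (SE 0.2, adjusted p = 0.804). A CRISPR lesion can leave the RNA of its gene in place, and values summed over a whole gene do not show the edited site.

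Of 22067 genes tested, 26 (0.118%) differed between AMPK KO and WT cells given cordycepin and EGF at an adjusted p under 0.05, of which 10 (0.0453%) were higher and 16 (0.0725%) lower in AMPK KO. The test was limma on log2(scaled RPKM + 0.5), with all 12 libraries in 1 fit. By the same test 383 genes (1.74%) differed between the lines with EGF alone and 97 (0.44%) with DMSO. At an unadjusted p under 0.05 there were 1567 genes (7.1%) higher and 1465 (6.64%) lower with cordycepin. By the threshold of the study, an unadjusted p of at most 0.05 and a log2 difference of at least 1 in size, 198 genes were higher and 143 lower, together 341 (1.55%). The number called depended on the fit. It was 2 when only the 4 libraries were fitted, 76 (0.344%) when WT DMSO replicate 3 was left out of the fit, and 267 higher (1.21%) and 145 lower (0.657%) when limma voom was run on reads recovered from the RPKM steps. All 26 genes kept their direction in each of those fits, and all 26 were also called by voom. Below, "called" without a tool refers to the limma fit on log2(scaled RPKM + 0.5), and calls by voom are named as such. Leaving out 1 of the 4 libraries left 4 to 14 calls.

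Of the 26 genes, 20 were protein coding, 4 were long noncoding RNA genes and 2 were processed pseudogenes. For the largest of these differences the gene was read in one line and at or near 0 in the other. Genes just inside the threshold were GRM7-AS1 and ZNF426 (adjusted p = 0.046 and 0.0492), and just outside it were SULT1C4, ENSG00000269825 and CADPS (adjusted p = 0.0504, 0.0512 and 0.056).

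**Figure D1:**
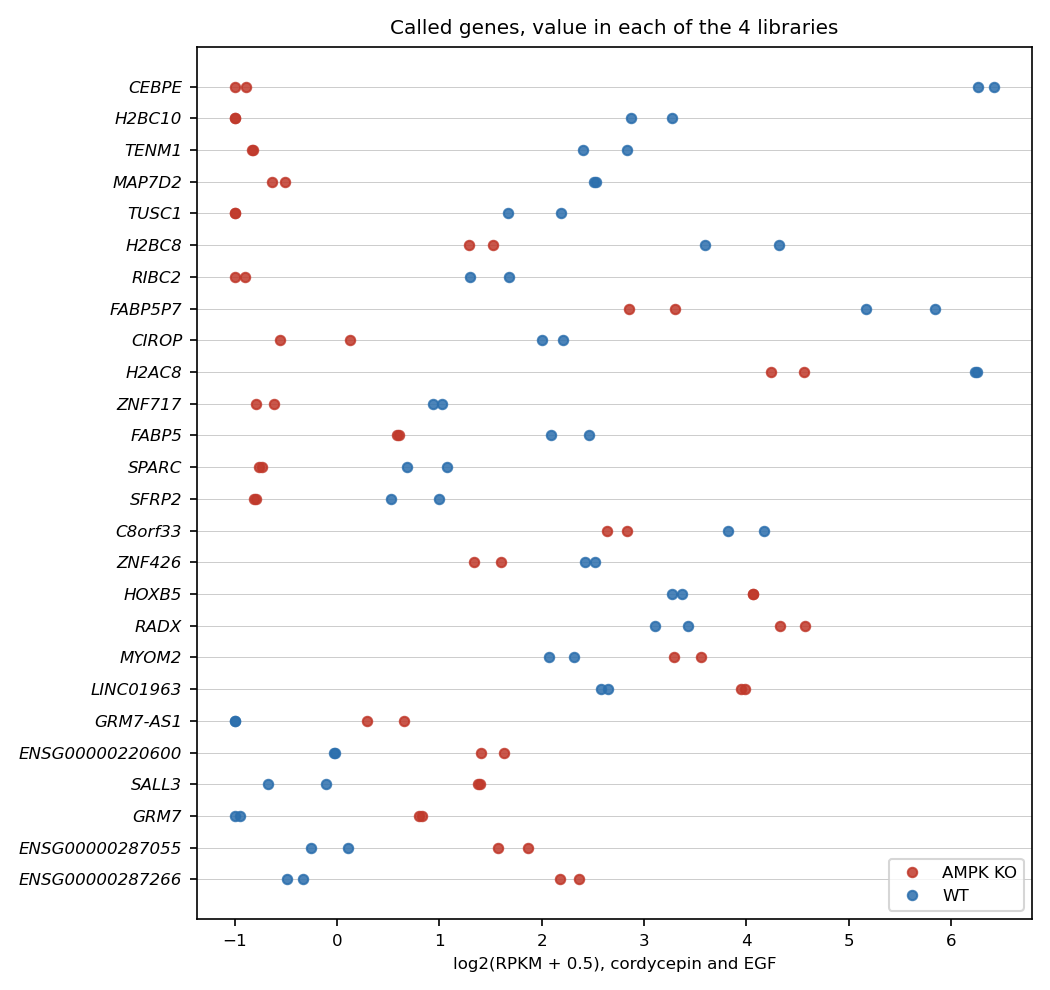
Log2(RPKM + 0.5) of the 26 called genes in each of the 4 libraries given cordycepin and EGF (x axis), with genes in rows ordered by log2 difference. Red points are the 2 AMPK KO libraries and blue points the 2 WT libraries, and the 2 lines do not overlap for any of these genes. A value of -1 is 0 RPKM.

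CEBPE, a transcription factor of the C/EBP family that is best known for the last steps of granulocyte differentiation, was the gene with the largest difference. CEBPE (ENSG00000092067, chromosome 14, 23117036 to 23120256, minus strand) had 0.0387 and 0 RPKM in AMPK KO cells with cordycepin, from 1 read and no read, and 85 and 76.2 RPKM in WT cells, from 4326 and 2157 reads. The log2 difference was -7.3 (SE 0.12, adjusted p = 9.31e-09). As a ratio of reads WT cells were 4851-fold higher, with an exact 95% counting interval of 870.3 to 191620. Intervals of this kind cover counting error only. The gene had no read in any of the 4 AMPK KO libraries without cordycepin and between 84.8 and 114 RPKM in the 4 WT ones. It was the only one of the 26 that was called under every alternative processing tried. CIROP, the adjacent gene (12046 bases from CEBPE, on the same strand, and encoding a predicted secreted metalloprotease), had 0.592 and 0.18 RPKM in AMPK KO and 4.11 and 3.51 RPKM in WT cells, a log2 difference of -2.32 (SE 0.25, adjusted p = 0.0105). The other 7 tested genes within 100 kb of CEBPE were not called. Their log2 differences ran from -1.03 for PSMB5, a proteasome subunit, to 0.42 for CDH24, a cadherin.

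Of the other C/EBP genes none was called by limma on log2 RPKM, and 1, CEBPG, was called lower by voom (adjusted p = 0.0395). At an unadjusted p under 0.05, 4 of the 7 tested members were lower, beside 6.64% of all tested genes. All 7 tested members, CEBPE included, had a log2 difference below 0, and 5 did not overlap between lines, beside 22.1% of all genes tested that lay without overlap on the lower side and 23.7% on the higher side. The median of the 7 was -0.52 with cordycepin, -0.3 with EGF and near 0 with DMSO, beside 0.01 for all tested genes with cordycepin. CEBPG, a partner of other bZIP factors, had 25.5 and 34.3 RPKM in AMPK KO and 43.9 and 58.3 RPKM in WT cells, a log2 difference of -0.74 (SE 0.2, adjusted p = 0.228). DDIT3, the stress-induced member also known as CHOP, had 5.49 and 3.96 RPKM in AMPK KO and 7 and 11.6 RPKM in WT cells (-0.87, adjusted p = 0.259). Values for CEBPB (-0.52), CEBPZ (-0.48), CEBPA (-0.26) and CEBPD (-0.19) were smaller, and those of CEBPA and CEBPD overlapped between lines.

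The 250 bases before the RefSeq start of CEBPE and of GRM7 are shown because these genes were near 0 in one line and read in the other, in opposite directions. That of CEBPE is chr14:23119256-23119505 on the minus strand and that of GRM7 chr3:6860865-6861114 on the plus strand (GRCh38, RefSeq promoter windows, 5′ to 3′), and both stretches lie in introns of longer GENCODE transcripts. Capitals mark CG dinucleotides, the sites of DNA methylation, of which there are 2 in the first and 11 in the second.
CEBPE: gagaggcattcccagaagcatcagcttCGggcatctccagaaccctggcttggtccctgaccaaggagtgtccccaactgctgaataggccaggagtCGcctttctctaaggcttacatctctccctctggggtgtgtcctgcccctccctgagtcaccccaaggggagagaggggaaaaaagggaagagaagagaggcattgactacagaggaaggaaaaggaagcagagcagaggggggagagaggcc
GRM7: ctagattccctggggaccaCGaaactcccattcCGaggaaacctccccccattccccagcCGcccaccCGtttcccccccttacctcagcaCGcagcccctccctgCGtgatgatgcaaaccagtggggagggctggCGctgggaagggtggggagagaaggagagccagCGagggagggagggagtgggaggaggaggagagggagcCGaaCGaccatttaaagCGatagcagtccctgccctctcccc

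Of the 26 called genes, 15 had RefSeq windows (18 windows of 300 bases, 250 before to 50 after a start). Their median number of CG dinucleotides was 15, beside 14 over all 35116 windows. CEBPE and CIROP had 2 and 1, while SALL3 had 59 and the 2 windows of MAP7D2 had 33 and 54. The windows of H2BC8 and H2AC8 overlap. The full cAMP response element (TGACGTCA, either strand) was in 1 of the 18 windows of called genes (5.56%), that of ZNF426, and in 1.85% of all windows. Shares for the E-box (CACGTG, 1 of the 18 or 5.56%, and 7.26%) and the SP1 site (GGGCGG, 44.4% and 45%) stood likewise side by side. The EGR site (GCGTGGGCG) was in 0 of the 18 and in 0.795% of all. AP-1 letters (TGANTCA) were in 2 of the 18, those of the neighbours CEBPE and CIROP, and in 7.71% of all windows. A match of letters is a description and not a binding site.

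Several genes were read in WT cells and nearly silent in AMPK KO cells in all 3 treatments. TENM1, an X-linked teneurin that sits in the membrane of neurons, had 0.0655 and 0.0624 RPKM in AMPK KO and 6.63 and 4.78 RPKM in WT cells with cordycepin, a log2 difference of -3.46 (SE 0.2, adjusted p = 0.000295). MAP7D2, an X-linked microtubule-associated protein that recruits kinesin-1, had 0.203 and 0.145 RPKM in AMPK KO and 5.29 and 5.2 RPKM in WT cells (-3.1, SE 0.17, adjusted p = 0.000227). TUSC1, an intronless gene named as a candidate tumour suppressor, had no read in either AMPK KO library and 114 and 96 reads in the WT libraries. WT cells were thus at least 52.4-fold higher, with 3 reads over the AMPK KO group taken as the limit that no read allows. RIBC2, a protein of the inner wall of ciliary microtubules, had 1 and 0 reads in AMPK KO and 103 and 79 in WT cells, a ratio of 136 (exact 95% counting interval 24.1 to 5408). ZNF717, a KRAB zinc finger gene, had 0.152 and 0.076 RPKM in AMPK KO and 1.53 and 1.42 RPKM in WT cells (-1.69, SE 0.19, adjusted p = 0.011).

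Genes of secreted proteins belonged to the same group. SPARC, a matrix protein that binds collagen, had 0.0883 and 0.102 RPKM in AMPK KO and 1.61 and 1.1 RPKM in WT cells (-1.63, SE 0.19, adjusted p = 0.0137). SFRP2, a secreted modulator of Wnt signalling, had 0.0684 and 0.0794 RPKM against 1.49 and 0.937 RPKM (-1.57, SE 0.2, adjusted p = 0.0254). Both were also lower in AMPK KO cells with EGF and with DMSO, with log2 differences between -1.86 and -2.09. Of the 21 tested genes of the extracellular matrix and adhesion list SPARC was the only call by limma on log2 RPKM, while voom called 2 higher and 2 lower. At an unadjusted p under 0.05 there were 4 members in each direction, beside 7.1% of all tested genes higher and 6.64% lower. The median of the list was 0.16 with cordycepin beside -0.58 with EGF and -0.34 with DMSO. EPCAM, an epithelial adhesion molecule, had 11 and 13.8 RPKM in AMPK KO and 22.5 and 26.5 RPKM in WT cells (-0.94, SE 0.14, adjusted p = 0.068, by voom 0.00797).

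FABP5, a fatty acid binding protein, had 1 and 1.03 RPKM in AMPK KO and 3.77 and 5.01 RPKM in WT cells (-1.67, SE 0.19, adjusted p = 0.0117). Its processed pseudogene FABP5P7 had 6.74 and 9.39 RPKM against 35.4 and 56.8 RPKM (-2.4, SE 0.23, adjusted p = 0.00791). The 2 sequences are near copies, so how reads were shared between them is uncertain and the pair counts as 1 observation. C8orf33 had 5.74 and 6.61 RPKM against 13.6 and 17.5 RPKM (-1.24, SE 0.14, adjusted p = 0.011). ZNF426, another KRAB zinc finger gene, had 2.03 and 2.53 RPKM against 4.87 and 5.24 RPKM (-0.99, SE 0.14, adjusted p = 0.0492). Both were among the genes with smaller differences that were not near 0 in either line. Of 407 tested ZNF genes ZNF717 and ZNF426 were the only calls by limma on log2 RPKM, beside 0.0725% of all genes called lower. Voom called 6 higher and 7 lower, beside 1.21% and 0.657% of all genes. At an unadjusted p under 0.05 (limma), 26 were higher and 40 lower, beside 7.1% and 6.64% of all genes. The median of the list was -0.04.

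Among genes higher in AMPK KO cells, GRM7, a metabotropic glutamate receptor of presynaptic terminals, had 1.24 and 1.27 RPKM in AMPK KO and 0.0169 and 0 RPKM in WT cells, with 347 reads in all against 4. The sums 149 + 198 and 4 + 0 give a ratio of 116 (exact 95% counting interval 44.9 to 428), and the log2 difference was 1.81 (SE 0.16, adjusted p = 0.00507). GRM7-AS1, which lies inside GRM7 on the opposite strand, had 8 and 7 reads in AMPK KO and none in WT cells, so it was at least 6.68-fold higher by the same limit of 3 reads. Reads of overlapping genes on opposite strands can be told apart only where counting used strand, which the sources used here do not give. SALL3, a zinc finger factor of development, had 2.1 and 2.13 RPKM against 0.425 and 0.127 RPKM (1.8, SE 0.22, adjusted p = 0.0225). RADX, an X-linked gene whose product binds single-stranded DNA at replication forks, had 19.5 and 23.3 RPKM against 8.12 and 10.3 RPKM (1.2, SE 0.13, adjusted p = 0.0105). MYOM2, which encodes a protein of the sarcomere M-band, had 9.29 and 11.3 RPKM against 3.7 and 4.49 RPKM (1.25, SE 0.16, adjusted p = 0.0245).

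Long noncoding RNA genes made up 4 of the 10 that were higher, and a pseudogene 1. Of all 4573 long noncoding RNA genes tested (20.7% of tested genes) those 4 calls are 0.0875%, beside 0.118% of all genes. ENSG00000287266 and ENSG00000287055 are overlapping long noncoding RNA genes on opposite strands of chromosome 6. With 0.5 added to RPKM they had the largest log2 differences of the 10, at 2.71 (SE 0.29) and 1.82 (SE 0.19), each with an adjusted p = 0.0105 (limma). By ratio of reads GRM7 stood above both, at 116 against 16.2 for ENSG00000287266 and 6.73 for ENSG00000287055. ENSG00000287266 had 4.64 and 4.04 RPKM in AMPK KO and 0.295 and 0.212 RPKM in WT cells, and ENSG00000287055 2.47 and 3.15 RPKM against 0.341 and 0.574 RPKM. Reads of this pair, like those of GRM7 and GRM7-AS1, can be told apart only where counting used strand. The other tested genes within 100 kb of ENSG00000287055 lay between -0.63 and 0.49, among them POLR1C, a subunit of RNA polymerases I and III, at -0.1 and XPO5, the exporter of microRNA precursors, at -0.19. LINC01963 had 15.4 and 14.9 RPKM against 5.76 and 5.47 RPKM (1.38, SE 0.14, adjusted p = 0.00958). All 4 other tested genes within 100 kb of LINC01963 had a log2 difference above 0, from 0.34 for XRCC5, a subunit of the Ku heterodimer of DNA repair, to 1.03.

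A neighbouring pair of genes for histones H2A and H2B on chromosome 6 was lower in AMPK KO cells with cordycepin, and closer between the lines without it. H2BC8 (ENSG00000273802, minus strand, 26216200 to 26216688) had 2.37 and 1.94 RPKM in AMPK KO and 11.6 and 19.5 RPKM in WT cells with cordycepin, a log2 difference of -2.54 (SE 0.26, adjusted p = 0.00958). H2AC8 (ENSG00000277075, plus strand, 26216921 to 26217437) had 18.4 and 23.2 RPKM in AMPK KO and 75.6 and 74.6 RPKM in WT cells (-1.82, SE 0.18, adjusted p = 0.00958). With EGF alone the same log2 differences were -0.57 and -0.48, and with DMSO -0.72 and -0.79, none of them past adjustment. WT levels were alike in the 3 treatments, at 10.8 to 19.5 RPKM for H2BC8 and 61.2 to 99.9 RPKM for H2AC8 over 6 libraries. AMPK KO levels without cordycepin were 6.37 to 9.17 RPKM for H2BC8 and 42.9 to 51.4 RPKM for H2AC8, and lower in both libraries with cordycepin. The difference of the line differences against EGF alone was -1.96 (SE 0.36) for H2BC8 and -1.34 (SE 0.26) for H2AC8, each with an adjusted p = 0.122. The adjusted p was 0.0191 and 0.0101 by voom, where 2356 genes (10.7%) passed, and 0.0232 and 0.0191 without WT DMSO replicate 3, where 2006 genes (9.09%) passed.

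These genes are transcribed away from each other, and the 232 bases between their annotated ends (GRCh38, chr6:26216689-26216920, plus strand) are shown as the stretch they share. The 250 bases before the RefSeq start of H2BC10, the third histone gene called, follow (chr6:26272681-26272930, plus strand). Capitals mark the octamer (ATTTGCAT), the CCAAT box, the TATA box (TATAAA) and the core of the cAMP response element (TGACG), each on either strand.
H2BC8-H2AC8: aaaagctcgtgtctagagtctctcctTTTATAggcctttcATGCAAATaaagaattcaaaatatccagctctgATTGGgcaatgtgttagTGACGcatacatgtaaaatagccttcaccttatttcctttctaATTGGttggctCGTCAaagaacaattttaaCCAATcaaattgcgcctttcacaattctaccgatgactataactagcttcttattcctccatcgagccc
H2BC10: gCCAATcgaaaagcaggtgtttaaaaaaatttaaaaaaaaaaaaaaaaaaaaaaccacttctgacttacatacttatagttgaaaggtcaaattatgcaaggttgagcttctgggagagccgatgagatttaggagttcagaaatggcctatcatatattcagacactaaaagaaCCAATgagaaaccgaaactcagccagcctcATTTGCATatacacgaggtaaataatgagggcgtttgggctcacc

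The stretch between H2BC8 and H2AC8 held 1 octamer, 1 TATA box, 3 CCAAT boxes and 2 core elements, and that of H2BC10 held 1 octamer and 2 CCAAT boxes. Over 54 windows of tested replication-dependent histone genes the octamer was in 35.2%, the CCAAT box in 83.3%, the TATA box in 68.5% and the core element in 64.8%. Over all windows these shares were 1.77%, 34.6%, 11.5% and 24.6%. The octamer and the CCAAT box were added to the search after the called genes were known. H2BC10 (ENSG00000278588, plus strand, 26272931 to 26273412) had no read in AMPK KO and 95 and 71 reads in WT cells with cordycepin, at least 41.4-fold more by the limit of 3 reads. It was at 0 in 3 of the 4 AMPK KO libraries without cordycepin as well.

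Replication-dependent histone genes are transcribed for S phase, and most of their RNAs end in a stem-loop and carry no poly(A) tail. Of 55 tested, 3 were called lower, beside 0.0725% of all genes, and 0 higher, while voom called 4 lower and 0 higher. At an unadjusted p under 0.05 there were 12, all lower, beside 6.64% of all genes on that side, and 42 had a log2 difference below 0. The median was -0.31 with cordycepin, -0.17 with EGF and 0.25 with DMSO. As medians of single libraries around the mean of 12, the lines overlapped with cordycepin, at -0.52 and -0.11 in AMPK KO and -0.15 and 0.25 in WT cells, and over the alternatives the median difference ran from -0.58 to -0.12. All 14 tested H2A genes were below 0 (median -0.38), as were 9 of 14 H2B genes (median -0.2), 7 of 10 H3 genes (median -0.71), 9 of 12 H4 genes (median -0.28) and 3 of 5 H1 genes (median -0.6). The direction was shared by genes on chromosome 6 (32 of 41, median -0.28) and on chromosome 1 (10 of 13, median -0.47). Of 17 tested neighbours within 100 kb of H2AC8, H2BC8 and H2BC10 were called and the other 15 ran from -1.06 for ENSG00000289447 to 0.41 for H1-3, among them H1-4 at -0.61, H2BC7 at -0.14 and H3C6 at 0.04. Histone genes of a class are close copies, and how their reads were divided is uncertain. S phase genes had a median of -0.1 over 43 tested, with 0 called by limma on log2 RPKM, 1 higher and 6 lower at an unadjusted p under 0.05, and 1 higher and 1 lower by voom. G2/M genes had a median of -0.03 over 54 tested, with 0 called, 3 higher and 6 lower at an unadjusted p under 0.05, and 1 lower by voom. Whether cell cycle differences had a part in the histone values was not tested.

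HOXB5, a homeobox factor that sets position along the body axis, was higher in AMPK KO cells with cordycepin. It had 16.2 and 16.3 RPKM in AMPK KO and 9.81 and 9.19 RPKM in WT cells (0.76, SE 0.11, adjusted p = 0.0451). With EGF alone its level was 11 and 11.6 RPKM against 10.9 and 10.6 RPKM, a log2 difference of 0.09. With DMSO the log2 difference was 0.25, with no overlap between lines and an unadjusted p = 0.0414 (limma). The difference of these line differences was 0.68 (SE 0.15, adjusted p = 0.122, by voom 0.0561 and without WT DMSO replicate 3 0.0266). HOXB8, in the same cluster, had 6.31 and 6.59 RPKM against 3.25 and 3.14 RPKM (0.93, SE 0.18, adjusted p = 0.147, by voom 0.0207). Other genes of the HOXB cluster were given after their values were seen, and not all of the 9 tested HOXB genes are named. Log2 differences were 0.52 for HOXB2, 0.48 for HOXB9, 0.41 for HOXB3, 0.39 for HOXB6, 0.2 for HOXB4 and -0.14 for HOXB7. The last 2 overlapped between lines. The median was 0.41 for the 9 HOXB genes, 0.21 for 11 HOXA genes, 0.2 for 8 HOXC genes and -0.08 for 7 HOXD genes. With EGF alone it was -0.1 for HOXB and -0.43 for HOXA, and with DMSO 0.2 and -0.17. Over all 35 tested HOX genes HOXB5 was the 1 call by limma on log2 RPKM, beside 0.0453% of all genes called higher. Voom called 2, both higher, beside 1.21% of all genes on that side. At an unadjusted p under 0.05 (limma), 7 HOX genes were higher and 0 lower, beside 7.1% and 6.64% of all genes.

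**Figure D2:**
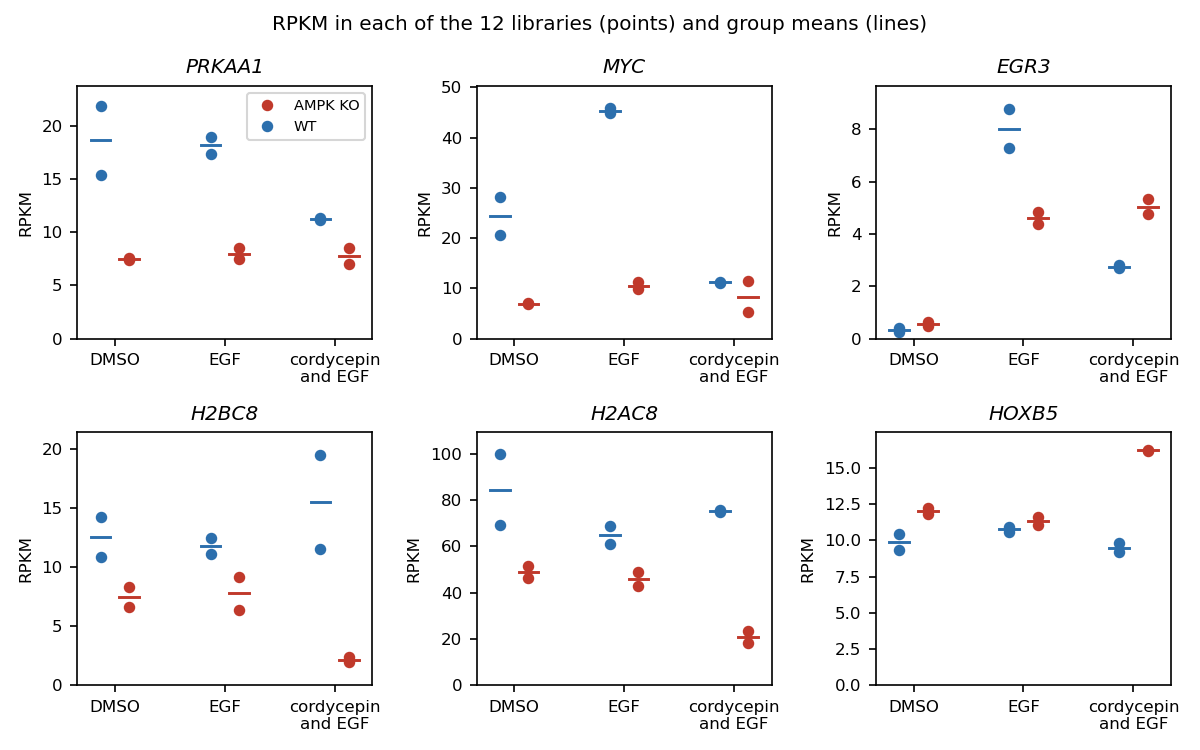
RPKM (y axis, from 0) of 6 genes in the 12 libraries, by treatment (x axis), with points for libraries and lines for group means of 2 (red AMPK KO, blue WT). H2BC8, H2AC8 and HOXB5 separate the lines most with cordycepin, while the lines lie closer for PRKAA1 and MYC with cordycepin than with EGF, and EGR3 changes sides.

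The 26 genes were looked up in libraries that had no part in the contrast by which they were called, though they had a part in its estimate of spread. Those libraries also entered the filter on the mean of 12 libraries. For genes near 0 in one line and near that limit, agreement was thus partly set beforehand. With EGF alone all 26 had the same sign without overlap between lines, and 19 passed adjustment. With DMSO 25 had the same sign without overlap, and 19 passed. Over all tested genes 25.8% with EGF and 18.8% with DMSO had the sign they had with cordycepin without overlap. The shares with that sign that passed adjustment were 1.19% with EGF and 0.358% with DMSO. The same 19 genes passed in both. The 7 that passed in neither were H2BC8, H2AC8, HOXB5, LINC01963, C8orf33, ZNF426 and ENSG00000220600, a pseudogene with 2.15 and 2.59 RPKM in AMPK KO and 0.477 and 0.49 RPKM in WT cells with cordycepin. For ENSG00000220600 the log2 difference was 1.56 (SE 0.21) with cordycepin, 0.53 with EGF and -0.16 with DMSO. Of the 7, none had a difference of line differences that passed adjustment in the fit of all libraries. No gene of the 22067 did so against EGF alone, where 4716 had an unadjusted p under 0.05, nor against DMSO, where 4905 did. By chance 1103 would be expected in each. These counts of 0 depended on the fit. Against EGF alone 1128 genes passed with only the groups compared, 1457 with array weights and 2356 with voom. Against DMSO these numbers were 0, 0 and 2794. The direction of the 341 genes past the threshold of the study was shared by 174 (51%) with EGF and by 151 (44.3%) with DMSO. Over all tested genes these shares were 43.5% and 39.8%. Of the 198 higher genes 87 shared it with EGF and 77 with DMSO, and of the 143 lower genes 87 and 74.

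**Figure D3:**
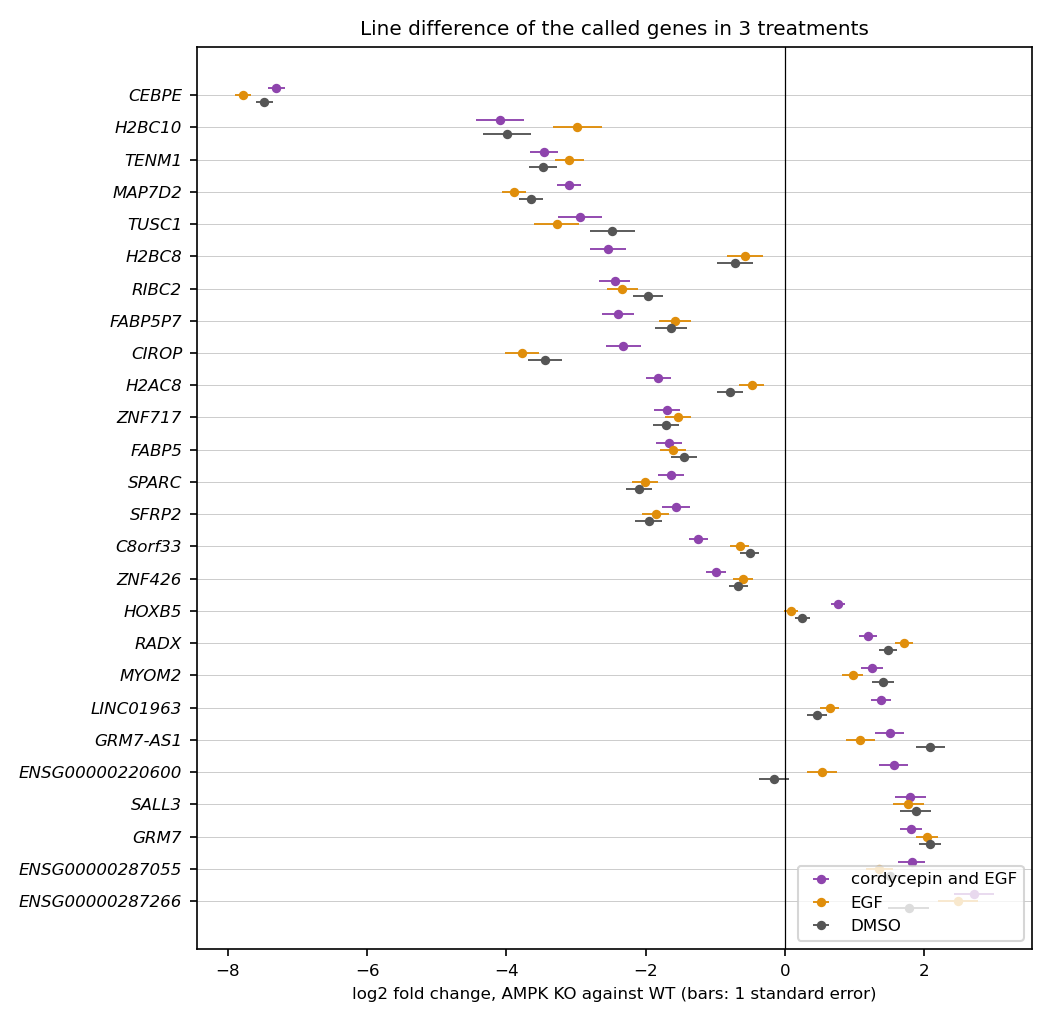
Log2 difference of AMPK KO against WT (x axis, bars of 1 standard error) for the 26 called genes, in cells given cordycepin and EGF (purple), EGF (orange) or DMSO (grey). For H2BC8 the value with cordycepin (-2.54) lies far from those with EGF (-0.57) and DMSO (-0.72), while for TENM1 and MAP7D2 all 3 values lie far from 0.

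Across all genes the line difference with cordycepin did not resemble that without it. Its correlation with the line difference under EGF was r = -0.08 and with that under DMSO r = -0.13, while the line differences under EGF and DMSO correlated with r = 0.45 (22067 genes, which are not independent replicates). These comparisons share no library. Median log2 differences with cordycepin fell with gene level, from 0.1 in the lowest quintile of genes by mean level to -0.11 in the highest. Without cordycepin they ran the other way, from -0.07 to 0.11 with EGF and from 0.001 to 0.07 with DMSO. Among protein coding genes medians with cordycepin rose with gene span, from -0.12 for the shortest quintile (median span 5.4 kb) to 0.08 for the longest (165 kb). With DMSO the trend with span ran the other way, from 0.19 to -0.14. The part of level and span in the results for single genes and for gene lists was not tested.

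MYC, the transcription factor of growth and ribosome production, differed between lines much less with cordycepin than with EGF alone. It had 5.27 and 11.4 RPKM in AMPK KO and 11.3 and 11.1 RPKM in WT cells with cordycepin, groups that overlap (log2 difference -0.48, SE 0.28, adjusted p = 0.471). With EGF alone it had 11.2 and 9.83 RPKM against 44.9 and 45.8 RPKM (-2.04, SE 0.28, adjusted p = 0.0199), and with DMSO 6.89 and 6.99 RPKM against 28.1 and 20.5 RPKM (-1.74, adjusted p = 0.0434). Both WT values with cordycepin lay below all 4 WT values without it, while AMPK KO values with cordycepin lay on either side of those without it. The difference of the line differences was 1.57 (SE 0.4, adjusted p = 0.123, by voom 0.0114 and without WT DMSO replicate 3 0.0471). Of 13 tested genes of the MYC-MAX network 0 were called by limma on log2 RPKM or by voom and 0 had an unadjusted p under 0.05, with a median of -0.02.

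Immediate early genes moved in both directions with cordycepin. Of 39 tested 0 were called by limma on log2 RPKM and 1, EGR3, was called higher by voom. At an unadjusted p under 0.05, 6 were higher and 6 lower, beside 7.1% and 6.64% of all tested genes. The median of the list was -0.07, beside -0.22 with EGF and 0.16 with DMSO. EGR3, a zinc finger factor induced by ERK signalling, had 5.35 and 4.74 RPKM in AMPK KO and 2.8 and 2.69 RPKM in WT cells with cordycepin (0.79, SE 0.17, adjusted p = 0.167, by voom 0.0207). With EGF alone the order was the opposite, 4.38 and 4.82 RPKM against 7.29 and 8.77 RPKM (-0.72, adjusted p = 0.0648). The difference of the line differences was 1.51 (SE 0.24, adjusted p = 0.122, by voom 0.00823). DUSP1, a phosphatase that inactivates MAP kinases, had 8.92 and 11.6 RPKM against 14.5 and 17.1 RPKM (-0.59, SE 0.13, adjusted p = 0.174). EGR1 had 44 and 70 RPKM in AMPK KO and 53.8 and 50.9 RPKM in WT cells with cordycepin, and 106 and 107 RPKM against 230 and 207 RPKM with EGF alone. FOS had 6.54 and 10 RPKM against 6.99 and 6.38 RPKM with cordycepin and 6.22 and 5.75 RPKM against 12.2 and 11.8 RPKM with EGF alone. For EGR1 and FOS, named after their values were seen, the lines overlapped with cordycepin and not with EGF, and the differences of the line differences were 1.12 and 1.21.

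Among genes with the smallest p for a difference of line differences between cordycepin and EGF and EGF alone, 6 of each sign were named. FGFR3, a fibroblast growth factor receptor, had 4.87 and 5.83 RPKM against 4.06 and 3.91 RPKM with cordycepin, and 2.63 and 2.91 RPKM against 6.68 and 6.83 RPKM with EGF alone (difference 1.53, SE 0.19, adjusted p = 0.122). NBEAL2, which is needed for platelet α-granules, had 7.62 and 8.86 RPKM against 4.9 and 5.87 RPKM with cordycepin (0.59, adjusted p = 0.167), and -0.66 with EGF alone. WDR90 (1.15), FAAP100 (1.14), C1orf159 (1.99) and ENSG00000262003 (2.45) were the others chosen by the same rule. Negative values were found for POLE3, a histone-fold subunit of DNA polymerase ε, with 37 and 38.6 RPKM against 49.9 and 56.2 RPKM with cordycepin (-0.46) beside 0.47 with EGF alone. The others were PRKACB, a catalytic subunit of protein kinase A (-1.31), FAAP24 (-1.37), SEC24A (-0.94), HSDL2 (-1) and ZDHHC12-DT (-2.1). Each had an adjusted p of at least 0.122.

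Lists of AMPK genes and of the synthesis and mTORC1 pathways it governs held 0 called genes, by limma on log2 RPKM and by voom. Of 14 tested factors of mitochondrial biogenesis 0 were called by limma on log2 RPKM and 1, ESRRA, was lower by voom (adjusted p = 0.0401). Over all tested genes voom called 1.21% higher and 0.657% lower. The autophagy and lysosome list is given below. None of the 14 tested subunits and upstream kinases, the 25 substrates and effectors, the 13 related kinases, the 15 genes of fatty acid synthesis, the 23 of cholesterol synthesis or the 22 regulators of mTORC1 was called, beside 0.118% of all genes. At an unadjusted p under 0.05 there were 1 higher and 2 lower subunits or upstream kinases, 2 higher and 3 lower substrates, no related kinase, 3 higher and 2 lower genes of fatty acid synthesis and 2 lower regulators of mTORC1. For cholesterol synthesis 21 of 23 log2 differences were below 0 with a median of -0.28, while 51.6% of all tested genes were above 0. At an unadjusted p under 0.05, 6 of the list were lower and 0 higher. For each list of this paragraph, the shares of all tested genes were 6.64% lower and 7.1% higher. With EGF and DMSO the medians of the list were 0.15 and 0.2. IDI1, which makes the activated isoprene unit, had 18.5 and 19.5 RPKM against 24.4 and 34 RPKM (-0.57, SE 0.2, adjusted p = 0.292). MSMO1, a sterol oxidase, was at -0.32 (adjusted p = 0.301). TXNIP, a regulator of glucose uptake, had 3.87 and 4.31 RPKM against 5.74 and 6.9 RPKM (-0.55, SE 0.19, adjusted p = 0.278), and TFE3, a lysosomal transcription factor, 9.54 and 9.79 RPKM against 13.8 and 16.8 RPKM (-0.61, SE 0.19, adjusted p = 0.263).

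Lists of the stress responses had medians below 0 with cordycepin and 0 genes called by limma on log2 RPKM. By voom 1 gene of the integrated stress response list was called higher and 1 lower, 1 of the heat shock list lower and 2 of the autophagy and lysosome list lower. The integrated stress response list (21 tested) had a median of -0.36 with 8 genes lower and 2 higher at an unadjusted p under 0.05. Beside this list and those that follow, 6.64% of all tested genes were lower and 7.1% higher. TRIB3, a pseudokinase induced by ATF4 and CHOP, had 3.9 and 5.38 RPKM against 8.32 and 12.8 RPKM (-1.07, SE 0.22, adjusted p = 0.153, by voom 0.0211). ALDH1L2, a mitochondrial folate enzyme of the same list, went the other way, with 2.74 and 3.24 RPKM against 1.46 and 1.35 RPKM (0.89, SE 0.17, adjusted p = 0.152, by voom 0.00631). Heat shock chaperones (15 tested) had a median of -0.23 with cordycepin beside 0.34 with EGF and 0.23 with DMSO, and 5 were lower and 0 higher at an unadjusted p under 0.05. Single libraries overlapped between the lines, with list medians of -0.32 and -0.08 in AMPK KO and -0.12 and 0.2 in WT cells. HSPA1A, the inducible HSP70 with a near-identical copy that can share its reads, had 415 and 301 RPKM against 671 and 804 RPKM with cordycepin, and 624 and 633 RPKM against 441 and 421 RPKM with EGF alone, a difference of -1.59 (SE 0.48, adjusted p = 0.139). By voom its line difference with cordycepin had an adjusted p = 0.0441. DNAJB1, its co-chaperone, had 13.5 and 12.9 RPKM against 20.9 and 28.3 RPKM (-0.84, SE 0.31, adjusted p = 0.301). For autophagy and lysosome genes (35 tested) the median was -0.22, and 9 were lower and 1 higher at an unadjusted p under 0.05.

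Genes of biosynthesis varied in the same range. Cytoplasmic ribosomal protein genes had a median of -0.25 over 83 tested, with 63 below 0 and with 0 called by limma on log2 RPKM. At an unadjusted p under 0.05 there were 5 higher and 10 lower, beside 7.1% and 6.64% of all tested genes. Voom called 2 of these ribosomal protein genes higher and 1 lower. Their medians in single libraries overlapped between lines (-0.36 and 0.02 in AMPK KO, -0.07 and 0.25 in WT cells), and many of them have near-identical pseudogenes that can share their reads. RPL39 had 16.5 and 21.8 RPKM against 38.2 and 49.4 RPKM (-1.15, SE 0.32, adjusted p = 0.237, by voom 0.0399). TFRC, the transferrin receptor, had 20 and 21.5 RPKM against 31.1 and 34.9 RPKM (-0.63, SE 0.12, adjusted p = 0.144, by voom 0.0103). PNP, the phosphorylase that splits purine nucleosides, had 8.25 and 8.66 RPKM against 14.6 and 16.8 RPKM (-0.83, SE 0.19, adjusted p = 0.175, by voom 0.0214). The list of adenosine transport and metabolism to which PNP belongs had a median of 0.04 over 16 tested, with 0 called by limma on log2 RPKM, 1 higher and 2 lower at an unadjusted p under 0.05, and PNP alone called by voom. The factors of cleavage and polyadenylation had one of -0.05 over 21 tested, with 0 called by either tool and 1 higher and 1 lower at an unadjusted p under 0.05. MAP7D2 was the 1 called member of 4 in the MAP7 family, in which MAP7 was at 0.46, MAP7D3 at 0.27 and MAP7D1 at -0.45.

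Markers of other cell types were looked at in the 4 libraries. For liver 0 of 5 markers were listed, and for fibroblasts and endothelium 2 of 7, with a summed level of 0.19 to 0.281 RPKM. Blood markers were at a sum of 6.1 and 6.17 RPKM in AMPK KO and 11.8 and 12.9 RPKM in WT cells. That sum came from the α-globin copies HBA1 and HBA2, while PTPRC was under 0.04 RPKM and CD34, CD3E and LYZ were not listed. Markers of a breast line summed to 12.2 and 16.9 RPKM against 21.8 and 29.2 RPKM. KRT19 had 7.07 and 10.4 RPKM against 16.1 and 23.9 RPKM (-1.13, SE 0.23, adjusted p = 0.153, by voom 0.0165). GATA3 had 4.85 and 6.41 RPKM in AMPK KO and 5.48 and 5.18 RPKM in WT cells, groups that overlap. ESR1 was higher in AMPK KO, at 0.269 and 0.15 RPKM against 0.129 and 0.0954 RPKM. PGR was lower, at 0.0093 and 0.0036 RPKM against 0.059 and 0.0721 RPKM. By limma on log2 RPKM 0 of these markers were called and by voom 1, KRT19, while 1 blood and 1 breast line marker were lower at an unadjusted p under 0.05. The part of these levels in other results was not tested.

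**Figure D4:**
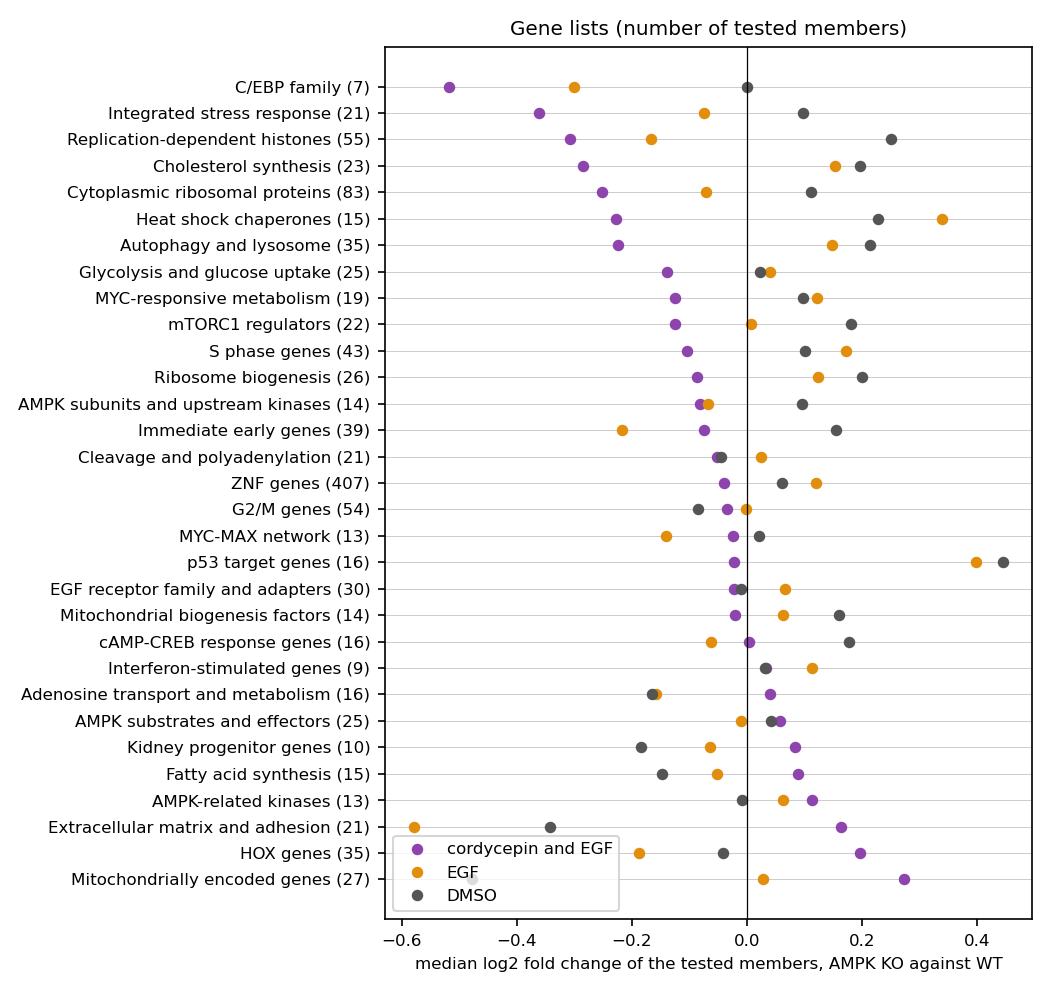
Median log2 difference of AMPK KO against WT (x axis) over the tested members of each gene list (rows, with the number of members), in cells given cordycepin and EGF (purple), EGF (orange) or DMSO (grey). The C/EBP family at -0.52 and the integrated stress response at -0.36 have their lowest median with cordycepin.

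Line differences were also summed up by position. In 287 windows of 10 Mb with at least 20 tested genes, the median line difference with cordycepin correlated with that under EGF at r = 0.58 and with that under DMSO at r = 0.29, and EGF and DMSO correlated at r = 0.64. By rank the first was 0.23 and the second -0.01. The regions below were chosen after the windows were seen and are given as a description. Chromosome 18 had a median log2 difference of 0.38 with cordycepin over 376 tested genes, beside 0.24 with EGF and 0.21 with DMSO. With cordycepin 333 of its genes (88.6%) were above 0, beside 51.6% of all tested genes. The next highest of 23 chromosomes was chromosome 3 at 0.17, and the lowest median of the 23 was -0.07. SALL3 is on chromosome 18. At an unadjusted p under 0.05 (limma), 133 of the 376 genes were higher and 1 lower, beside 7.1% and 6.64% of all tested genes.

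The distal long arm of chromosome 2 (from 190 Mb, 333 tested genes) had a median of 0.44 with cordycepin, 0.34 with EGF and 0.4 with DMSO, while the rest of that chromosome (1018 genes) was at -0.03, -0.05 and -0.12. LINC01963 and its neighbours lie in that stretch. On chromosome 3 the first 60 Mb, which hold GRM7, had medians of 0.28, 0.26 and 0.29 in the same order of treatments (512 genes), and the stretch from 120 to 140 Mb had 0.25, 0.24 and 0.23 (181 genes). From 140 Mb on the medians were -0.01, -0.08 and -0.13 (313 genes). The end of the long arm of chromosome 4 (from 160 Mb, 101 genes) was lower in AMPK KO cells, with -0.34, -0.34 and -0.47, and so was chromosome 14 up to 40 Mb (193 genes), with -0.21, -0.23 and -0.2. That last stretch holds CEBPE and CIROP, which differed by far more than its median. In each of these 6 regions the 2 AMPK KO libraries with cordycepin lay on one side of both WT libraries. The regions were chosen from the values of these same libraries, so that separation was partly set beforehand. The 6 regions are not all the stretches of this kind. On chromosome 6 the windows from 130 to 170 Mb had medians of 0.41, 0.39, 0.35 and 0.35 with cordycepin. In the same order they had 0.13, 0.31, 0.2 and 0.33 with EGF and 0.09, 0.1, 0.16 and 0.26 with DMSO. ENSG00000220600 lies in the first of those windows. Gene copy number was not measured here.

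**Figure D5:**
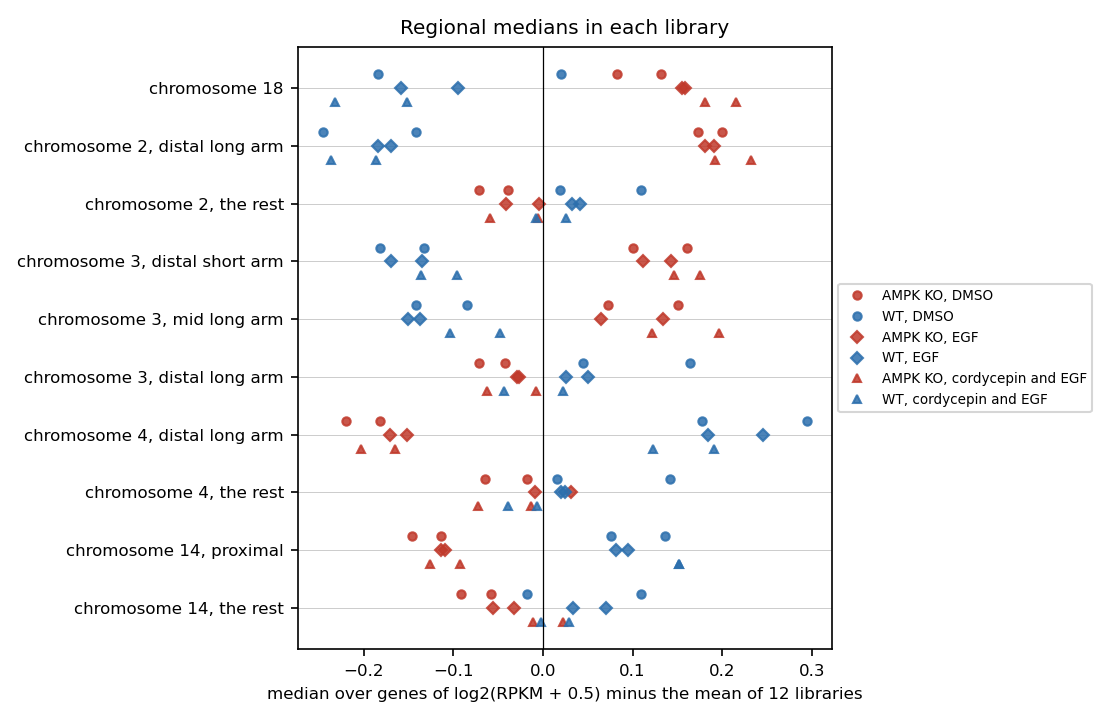
Median over genes of the deviation from the mean of 12 libraries, in log2(RPKM + 0.5) units (x axis), for parts of 5 chromosomes (rows) in each library, red for AMPK KO and blue for WT, with circles for DMSO, diamonds for EGF and triangles for cordycepin and EGF. The AMPK KO and WT libraries stand apart in the 6 regions of chromosomes 18, 2, 3, 4 and 14 named in the text and lie closer in the remaining parts of the same chromosomes. The regions were chosen after these values were seen.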

How the data were processed

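RNA was sequenced from 12 libraries (stranded, ribosomal RNA depleted, paired reads). The authors used Rsubread to map reads to GRCh38.p13 and to count them over genes, and deposited RPKM for 26058 genes. The strand setting of the counting was not given in the sources used here. Samples were grouped by their labels. Each library was divided by its upper quartile, as in the study, and 0.5 was added before log2 was taken, which understates the change of low genes. Printed RPKM are as deposited. The 22067 genes with a mean of at least 0.5 RPKM were tested with limma 3.58.1 in R 4.3.3 (lmFit, eBayes with trend, 6 residual degrees of freedom), two-sided, with all 12 libraries in 1 fit and Benjamini-Hochberg adjustment. Reads were recovered from the RPKM steps (96.25% of genes gave whole reads within 0.05 at the GENCODE 44 length, 99.54% after a length search) for voom and for counting intervals. Reads carry no molecular identifiers. The fit was tested on simulated data.

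The members, gene lists and naming rule were chosen with earlier results of these data known. Named were PRKAA1, PRKAA2, CEBPE, MYC, every called gene, list members that were called or, where fewer than 2 were, the 2 with the smallest p, and up to 6 genes each way with the smallest p for a difference of line differences. The other C/EBP and MAP7 genes, further HOXB genes, EGR1, FOS and genes given as neighbours were named after their values were seen. Alternatives were pseudocounts, filters, scalings, a fit of fewer groups, a replicate block, variance models and leaving out libraries. A sample's depth limits its low values, and 3 reads over a group were taken as the limit that no read allows.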

Additional observations from a re-analysis of the deposited data

How the results depend on the processing

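The number of genes called between AMPK KO and WT cells with cordycepin and EGF was 26, and it moved to 2 with only the groups compared, to 412 with voom and to 76 without WT DMSO replicate 3. Without 1 of the 4 libraries it was 4 to 14, with 4 and 6 without AMPK KO replicate 2 or 3 and 9 and 14 without WT replicate 2 or 3. Pseudocounts, filters, scalings, eBayes without trend and array weights gave 20 to 33. With the replicate block it was 27, of which 22 were among the 26. Genes past the threshold of the study numbered 341, 586 with a pseudocount of 0.1, 194 with a pseudocount of 1, 821 with voom and 307 to 855 without 1 library. For the difference of the line differences against EGF alone 0 genes passed, but 1128 did with only the groups compared, 1457 with array weights, 2356 with voom and 2006 without WT DMSO replicate 3. Against DMSO 0 passed, 1 with the replicate block, 2794 with voom, 3568 without WT DMSO replicate 3 and 0 to 1 without 1 library of the cordycepin groups. The cause was not tested. The labels do not say what a replicate number shares, and deviations of same-numbered libraries correlated with r from -0.122 to 0.322 over 15 pairs of groups (0.126 for the compared groups), so numbers were not taken as pairing. The block changed no other count by over 1.5 times.

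Of 1879 pairs of named gene and alternative 9 reversed, each in a gene whose lines overlapped and each without 1 library. The log2 difference without 1 library ran from -0.3306 to 0.08532 for PRKAA2, -0.9957 to 0.03967 for MYC, -0.5602 to 0.04633 for CEBPA, -0.5045 to 0.1218 for CEBPD, -0.07347 to 0.4686 for HOXB4, -0.09908 to 0.257 for GATA3, -0.002162 to 0.5607 for FOS, -0.2196 to 0.4274 for EGR1 and -0.2887 to 0.01527 for HOXB7. The sign turned without AMPK KO replicate 2 for PRKAA2, MYC, CEBPA, CEBPD and HOXB4, without AMPK KO replicate 3 for GATA3, FOS and EGR1, and without WT replicate 3 for HOXB7. Of the 26 called genes 25 lost the call in at least 1 alternative. Of 58 medians of lists and chromosomes 23 changed sign in at least 1 alternative. Medians that kept their sign still moved, from -0.45 to -0.07 for ribosomal proteins, -0.58 to -0.12 for histones, 0.05 to 0.28 for HOX, -0.70 to -0.36 for C/EBP, -0.41 to -0.23 for the integrated stress response, -0.38 to -0.16 for heat shock, -0.33 to -0.14 for autophagy and -0.30 to -0.22 for cholesterol synthesis. Depth limits genes near 0.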
